A study of Solanum lycopersicum with 6 samples.

Results

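The Aux/IAA and auxin response factor (ARF) genes of tomato were examined in the epicotyl, which is the stem between cotyledons and first leaves, of seedlings grown under opposite day and night temperatures. The set held 41 genes, 21 Aux/IAA and 20 ARF genes, listed by gene identifier with earlier results of these data known, out of 34527 tomato gene identifiers on the array. Each of the 41 was measured by 1 probe, so 41 of 43803 probes that are not controls are described here, and different parts of a transcript cannot be compared. The division into families was made by hand, because neither the arrays nor the tables used here give a product or symbol for these identifiers, and members are therefore called by identifier. The digits that follow Solyc in an identifier name the chromosome.

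Auxin (indole-3-acetic acid, IAA) is a growth hormone that promotes cell elongation in stems. Aux/IAA proteins are short-lived repressors that bind ARFs, the transcription factors that recognise auxin response elements in promoters, and hold auxin-responsive genes off. When auxin binds its F-box receptors of the TIR1/AFB type, Aux/IAA proteins are tagged for destruction and the ARFs are released. Many Aux/IAA genes are themselves induced by auxin, which closes a feedback loop, whereas ARFs include both activators and repressors of transcription. These general roles are known best from Arabidopsis.

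DIF is the day temperature minus the night temperature. The study compared 3 arrays of negative DIF, 25°C by day and 30°C by night, with 3 arrays of positive DIF, 30°C by day and 25°C by night, to ask how DIF regulates stem growth. All seedlings were of the cultivar Managua RZ, germinated in the dark, raised at 23°C by day and by night until the cotyledons had opened, and then treated for 7 d with a 16 h photoperiod at 300 µmol photons m-2 s-1, so that tissue was 14 d old. Each treatment had 3 biological replicates, each hybridised alone with 1 dye, and the replicates are numbered as in their labels.

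The samples were collected in the light, when positive DIF seedlings were at 30°C and negative DIF seedlings at 25°C, so the temperature at harvest and the 7 d of DIF cannot be told apart. RNA came from whole epicotyls, and fewer cells expressing a gene cannot be told apart from less of its RNA per cell. An array had from 27230 to 29341 probes well above its background, and 0 probes were saturated. Negative DIF replicates 1 and 2 shared a slide, while negative DIF replicate 3 and all 3 positive DIF arrays shared another, so slide and treatment overlapped in part. Therefore, the difference within the second slide (its 1 negative DIF array against its 3 positive DIF arrays) is given beside the main results. Precision is limited throughout by the small number of arrays.

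Signal is given as log2 of the processed spot intensity minus the 75th percentile of its array, so that 0 is the level of that percentile. A fold change below 0 on the log2 scale means lower under negative DIF, and each was fitted with limma over all 43803 probes. Adjusted p-values are Benjamini-Hochberg values over all these probes, with a threshold of 0.05, and counts at an unadjusted p of 0.05 are given beside them. No member passed the adjusted threshold, which 403 probes (0.92% of the array) passed, 217 lower (0.495%) and 186 higher (0.425%) under negative DIF. Accordingly, every difference below is a difference that passed, or did not pass, the unadjusted threshold only. With 3 arrays in each treatment, the smallest p that an exact two-sided permutation test allows is 0.1.

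At the unadjusted threshold, 9 of 21 Aux/IAA genes were lower and 1 higher under negative DIF, and 5 of 20 ARF genes were higher and 0 lower, while 8.72% of all probes were lower and 10.2% higher. The sign of the log2 fold change is counted next for all members, including those near 0 that did not pass. Among the 21 Aux/IAA genes, 15 had a log2 fold change below 0, against 42.5% of all probes and 46.9% of the 26942 bright probes, those well above background on all arrays of at least 1 treatment. Their median log2 fold change was -0.55, while the median over all probes was 0.07. Of the 19 ARF genes measured above background, 16 had a log2 fold change above 0, against 57.5% of all probes and 53.1% of the bright probes, and their median was 0.32. Shares of the bright probes past the unadjusted threshold, or without overlap between treatments, were not counted. Because of how the members were listed, these counts describe the families and were not tested.

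**Figure D1:**
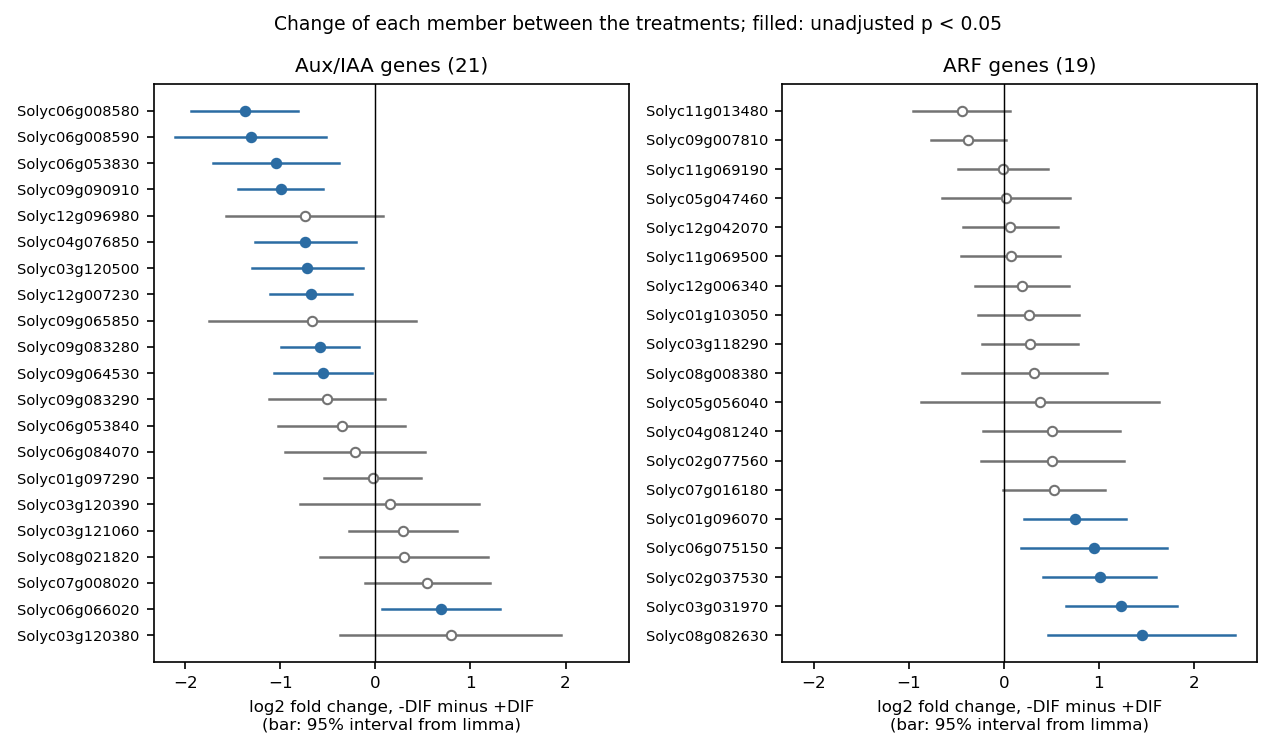
Log2 fold change, negative DIF minus positive DIF, of the 21 Aux/IAA and 19 ARF genes measured above background, with 95% intervals from limma as bars and filled points where the unadjusted p was below 0.05. The Aux/IAA points range from -1.37 to 0.79, with 15 of 21 left of 0, and the ARF points from -0.44 to 1.45, with 16 of 19 right of 0.

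The Aux/IAA genes that passed the unadjusted threshold were lower under negative DIF with 1 exception, and 11 did not pass. The share lower was 42.9% of the family, against 8.72% of all probes, and the share higher was 4.76%, against 10.2% of all probes. The arrays of the treatments did not overlap for 9 Aux/IAA genes that were lower, a pattern shown by 12.4% of all probes, and for 2 that were higher, a pattern shown by 14.6%. All 21 were well above background on all 6 arrays, whereas the shares of all probes include dim probes. The same shares among bright probes were not counted, so the contrast may be smaller than it appears. The largest differences, 2.07-fold to 2.59-fold lower under negative DIF, were found in 3 genes of chromosome 6.

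Solyc06g008580 had a log2 signal of -0.82, -0.72 and -0.27 on negative DIF arrays 1, 2 and 3, and of 0.51, 0.84 and 0.95 on positive DIF arrays 1, 2 and 3. All 3 negative DIF arrays lay below all 3 positive DIF arrays, and the array nearest to the positive DIF group was replicate 3, from the shared slide. The gene was 2.59-fold lower under negative DIF (log2 fold change -1.37, SE 0.23, adjusted p = 0.058 by limma), the smallest adjusted p of the family. Within the second slide the difference was -1.04, and with slide as a block in the fit the unadjusted p was 0.0175.

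Solyc06g008590, whose identifier follows directly on Solyc06g008580, had a log2 signal of -0.07, -0.76 and -0.66 under negative DIF and of 0.56, 1.38 and 0.48 under positive DIF. Positive DIF replicate 2 was the highest array and negative DIF replicate 1 came closest to the positive DIF arrays, without overlap. Its level was 2.48-fold lower under negative DIF (log2 fold change -1.31, SE 0.33, adjusted p = 0.113 by limma). The difference was as large within the second slide, at -1.48, with an unadjusted p of 0.0284 in the fit with slide as a block.

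The signal of Solyc06g053830 was -0.13, 0.06 and 0.44 under negative DIF and 1.58, 0.80 and 1.13 under positive DIF. The groups did not overlap, and the negative DIF array of the second slide was again the highest of its group. The log2 fold change was -1.05 (SE 0.27, adjusted p = 0.123 by limma), or 2.07-fold lower. Within the second slide it was -0.73, with an unadjusted p of 0.112 under the slide block.

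For Solyc09g090910, log2 signals were -0.08, -0.46 and -0.11 under negative DIF and 0.83, 0.74 and 0.76 under positive DIF. The positive DIF arrays lay close together, with an SD of 0.04 (n = 3), and all stood above the negative DIF arrays. This gene was 1.99-fold lower under negative DIF (log2 fold change -0.99, SE 0.18, adjusted p = 0.0659 by limma). Within the second slide the difference was -0.89, and the unadjusted p under the slide block was 0.0265.

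A further 5 Aux/IAA genes had smaller differences, between 1.47-fold and 1.67-fold lower, on probes whose arrays did not overlap between treatments. Solyc04g076850 measured 3.04, 3.17 and 3.01 under negative DIF and 3.93, 4.05 and 3.44 under positive DIF. Here positive DIF replicate 3 was the low array of its group, while the negative DIF arrays lay within an SD of 0.09 (n = 3). The log2 fold change was -0.74 (SE 0.22, adjusted p = 0.154 by limma) and was -0.80 within the second slide. Its unadjusted p missed the threshold with slide as a block (0.0649) and without positive DIF replicate 2 (0.0506).

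Solyc12g007230 gave 2.15, 2.10 and 2.44 under negative DIF and 2.88, 2.89 and 2.94 under positive DIF. Its positive DIF arrays were nearly equal, and negative DIF replicate 3 lay nearest to them. The log2 fold change was -0.68 (SE 0.18, adjusted p = 0.124 by limma), against -0.46 within the second slide. In Solyc09g083280, signals of 2.29, 2.39 and 2.46 under negative DIF stood below signals of 2.98, 3.07 and 2.83 under positive DIF. The spread within each treatment was small beside the gap, and the log2 fold change was -0.58 (SE 0.17, adjusted p = 0.151 by limma), close to the -0.50 found within the second slide. With slide as a block, the unadjusted p missed the threshold for Solyc12g007230 (0.132) and for Solyc09g083280 (0.125).

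Solyc03g120500 measured 1.98, 2.40 and 2.76 under negative DIF and 3.20, 3.02 and 3.06 under positive DIF. The negative DIF arrays were spread over a wider range than the positive DIF arrays, and replicate 3 of negative DIF came close to the positive DIF group. Its log2 fold change of -0.71 (SE 0.24, adjusted p = 0.192 by limma) was -0.34 within the second slide. Solyc09g064530 showed the same order of negative DIF arrays, with 0.13, 0.52 and 0.74 under negative DIF and 1.04, 1.09 and 0.92 under positive DIF. The gene's log2 fold change was -0.55 (SE 0.21, adjusted p = 0.239 by limma), and it was -0.28 within the second slide. Neither passed with slide as a block, where the unadjusted p was 0.319 for Solyc03g120500 and 0.393 for Solyc09g064530. Fits with a single array left out hold fewer arrays, so a higher p there need not mean a smaller difference. In these fits the log2 fold change ranged from -0.90 to -0.51 for Solyc03g120500 and from -0.69 to -0.39 for Solyc09g064530. The unadjusted p of Solyc03g120500 missed the threshold without negative DIF replicate 2 (0.0601), positive DIF replicate 1 (0.0661) or positive DIF replicate 3 (0.0509). That of Solyc09g064530 missed it without any single array except negative DIF replicate 3, at 0.059 to 0.104.

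The single Aux/IAA gene that was higher under negative DIF, Solyc06g066020, had a log2 signal of -4.80, -5.66 and -5.39 under negative DIF and of -6.03, -5.99 and -5.90 under positive DIF. Negative DIF replicate 1 stood well above the other arrays, and the processed intensity was 86.9 there against 22.7 to 37.7 on the remaining arrays. The log2 fold change was 0.69 (SE 0.26, adjusted p = 0.225 by limma), 0.58 within the second slide, and -0.02 under another background correction (normexp). Its unadjusted p missed the threshold with slide as a block (0.204) and without any single array except negative DIF replicate 2, at 0.0539 to 0.0829.

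**Figure D2:**
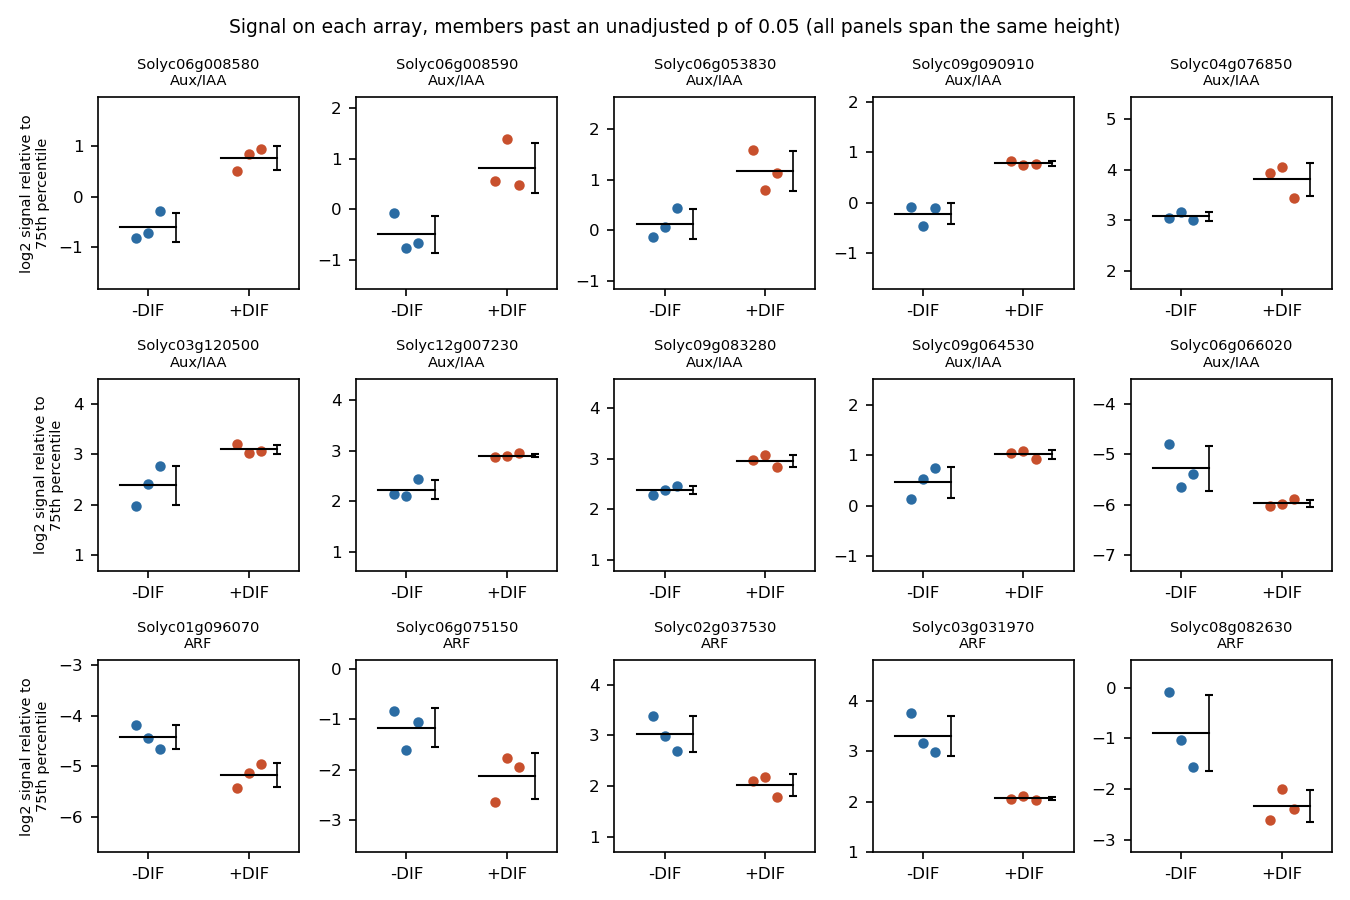
Log2 signal relative to the 75th percentile on each of the 6 arrays for the 10 Aux/IAA and 5 ARF genes past an unadjusted p of 0.05, with the mean (line) and SD (bar) of each treatment, negative DIF in blue and positive DIF in red. In every panel the 3 negative DIF points lie on one side of the 3 positive DIF points, above them in Solyc06g066020 and the ARF genes.

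The remaining 11 Aux/IAA genes had log2 fold changes from -0.74 to 0.79, and the 95% interval of each held 0. Among these were 2 of the 3 brightest Aux/IAA probes. Solyc01g097290 had log2 signals of 4.69, 4.51 and 4.38 under negative DIF and of 4.68, 4.74 and 4.25 under positive DIF, and these ranges overlapped almost entirely. Its log2 fold change was -0.03, with a 95% interval from -0.54 to 0.48. Solyc09g083290 had signals of 4.59, 4.49 and 4.48 under negative DIF and of 5.23, 5.31 and 4.54 under positive DIF. Positive DIF replicates 1 and 2 were high and replicate 3 was at the negative DIF level, giving -0.51 with a 95% interval from -1.12 to 0.10.

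Of the other Aux/IAA genes that did not pass, 4 were below 0, Solyc12g096980 at -0.74, Solyc09g065850 at -0.66, Solyc06g053840 at -0.35 and Solyc06g084070 at -0.21. The rest were above 0, Solyc03g120380 at 0.79, Solyc07g008020 at 0.54, Solyc08g021820 at 0.30, Solyc03g121060 at 0.29 and Solyc03g120390 at 0.15. Wide spread within positive DIF went with several of these values. Solyc12g096980, for example, ranged from -0.59 to 0.65 over the positive DIF arrays, and Solyc03g120380 from -5.22 to -3.35. Solyc07g008020 was the only one of the 11 whose treatments did not overlap. Solyc06g053840 differed by -0.83 within the second slide (unadjusted p of 0.0452 with slide as a block), a value that rests on negative DIF replicate 3, the lowest array of its group. Without that array its log2 fold change was -0.11, with an unadjusted p of 0.676.

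In 4 pairs of Aux/IAA genes the identifiers were consecutive, and both members of each pair had a log2 fold change of the same sign. These were Solyc06g008580 and Solyc06g008590 at -1.37 and -1.31, Solyc06g053830 and Solyc06g053840 at -1.05 and -0.35, Solyc09g083280 and Solyc09g083290 at -0.58 and -0.51, and Solyc03g120380 and Solyc03g120390 at 0.79 and 0.15. Only the first pair had both members past the unadjusted threshold. Like signs are common where 15 of 21 genes are below 0, and the share of like signs among consecutive identifiers over the array was not counted. The value of Solyc03g120390 had a 95% interval from -0.79 to 1.09, and its sign turned without positive DIF replicate 3, at -0.22. Cross-hybridisation between the members of a pair was not tested, since probe sequences were not used here.

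The ARF genes that passed the unadjusted threshold were higher under negative DIF. Of the 20 genes, 5 passed (25%, against 10.2% of all probes), all with higher signal, and 0 were lower at that threshold (against 8.72% of all probes). The treatments did not overlap for 6 higher genes and 1 lower gene, against the 14.6% and 12.4% of all probes. Differences of the 5 genes ranged from 1.68-fold to 2.73-fold. In Solyc10g086130 the probe never stood well above background, with a processed intensity between 2.47 and 4.65, and no fold is given for it. The other 19 were well above background on all 6 arrays, whereas here too the shares of all probes include dim probes.

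Solyc03g031970 had log2 signals of 3.75, 3.17 and 2.99 under negative DIF and of 2.07, 2.11 and 2.05 under positive DIF. The positive DIF arrays agreed within an SD of 0.03 (n = 3), and all negative DIF arrays lay far above them, replicate 1 highest. The gene was 2.35-fold higher under negative DIF (log2 fold change 1.23, SE 0.24, adjusted p = 0.072 by limma), the smallest adjusted p among the ARF genes. It was 0.92 higher within the second slide and was the only ARF gene past the unadjusted threshold with slide as a block, at 0.0357. In that fit 3.88% of all probes were higher at this threshold, so 1 such ARF gene is near the share of the array.

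Solyc02g037530 showed a like pattern, with 3.39, 2.995 and 2.69 under negative DIF and 2.10, 2.18 and 1.78 under positive DIF. Again negative DIF replicate 1 was highest and replicate 3, on the second slide, lowest of its group. The log2 fold change was 1.01 (SE 0.25, adjusted p = 0.108 by limma), or 2.01-fold. Within the second slide it was 0.67, with an unadjusted p of 0.0933 under the slide block.

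The largest ARF difference was that of Solyc08g082630, whose log2 signals were -0.09, -1.02 and -1.57 under negative DIF and -2.62, -2.001 and -2.41 under positive DIF. Its negative DIF arrays were far apart, with an SD of 0.75 (n = 3), but none reached the positive DIF range. The gene was 2.73-fold higher (log2 fold change 1.45, SE 0.41, adjusted p = 0.14 by limma). The difference was 0.77 within the second slide, and its unadjusted p under the slide block was 0.16. Without negative DIF replicate 1 the log2 fold change was 1.05.

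Solyc06g075150 measured -0.84, -1.60 and -1.06 under negative DIF and -2.63, -1.77 and -1.95 under positive DIF. Negative DIF replicate 2 came near positive DIF replicate 2, so the gap between the groups was narrow. Its log2 fold change of 0.95 (SE 0.32, adjusted p = 0.186 by limma) was 1.05 within the second slide, and its unadjusted p missed the threshold with slide as a block (0.079) and without negative DIF replicate 1 (0.0693), negative DIF replicate 3 (0.0632) or positive DIF replicate 1 (0.0598). Solyc01g096070 measured -4.17, -4.45 and -4.65 under negative DIF and -5.44, -5.14 and -4.95 under positive DIF. The groups did not overlap, and the log2 fold change was 0.75 (SE 0.22, adjusted p = 0.153 by limma), 0.52 within the second slide, where the unadjusted p with slide as a block missed the threshold at 0.165. Under normexp background correction it was 0.23, and it was 0.42 by the deposited log2 values.

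The 14 ARF genes that were measured and did not pass had log2 fold changes from -0.44 to 0.53, with 0 inside every 95% interval. The 3 brightest ARF probes were among them. Solyc11g069190 had log2 signals of 4.02, 3.63 and 3.64 under negative DIF and of 3.73, 3.92 and 3.66 under positive DIF, with a difference of -0.01 and a 95% interval from -0.48 to 0.47. Solyc01g103050 had 3.80, 3.71 and 3.70 under negative DIF and 3.34, 3.86 and 3.23 under positive DIF, a difference of 0.26 with an interval from -0.27 to 0.79. The positive DIF arrays were more spread than the negative DIF arrays, and replicate 2 was the highest of all 6. Solyc03g118290 had 3.09, 2.84 and 2.74 under negative DIF and 2.54, 2.89 and 2.43 under positive DIF, a difference of 0.27 with an interval from -0.23 to 0.78.

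A further 2 ARF genes did not overlap between treatments, Solyc07g016180 at 0.53 and Solyc09g007810 at -0.37. The latter was the ARF gene nearest to a difference in the lower direction, with log2 signals of -0.37, -0.44 and -0.47 under negative DIF and of -0.02, -0.15 and 0.02 under positive DIF. Solyc11g013480 was also below 0, at -0.44. Another 3 genes lay between 0.38 and 0.51, Solyc02g077560 at 0.51, Solyc04g081240 at 0.50 and Solyc05g056040 at 0.38, the last with an SD of 1.01 (n = 3) over the positive DIF arrays. Solyc08g008380 at 0.32, Solyc12g006340 at 0.19, Solyc11g069500 at 0.07, Solyc12g042070 at 0.07 and Solyc05g047460 at 0.02 completed the family.

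**Figure D3:**
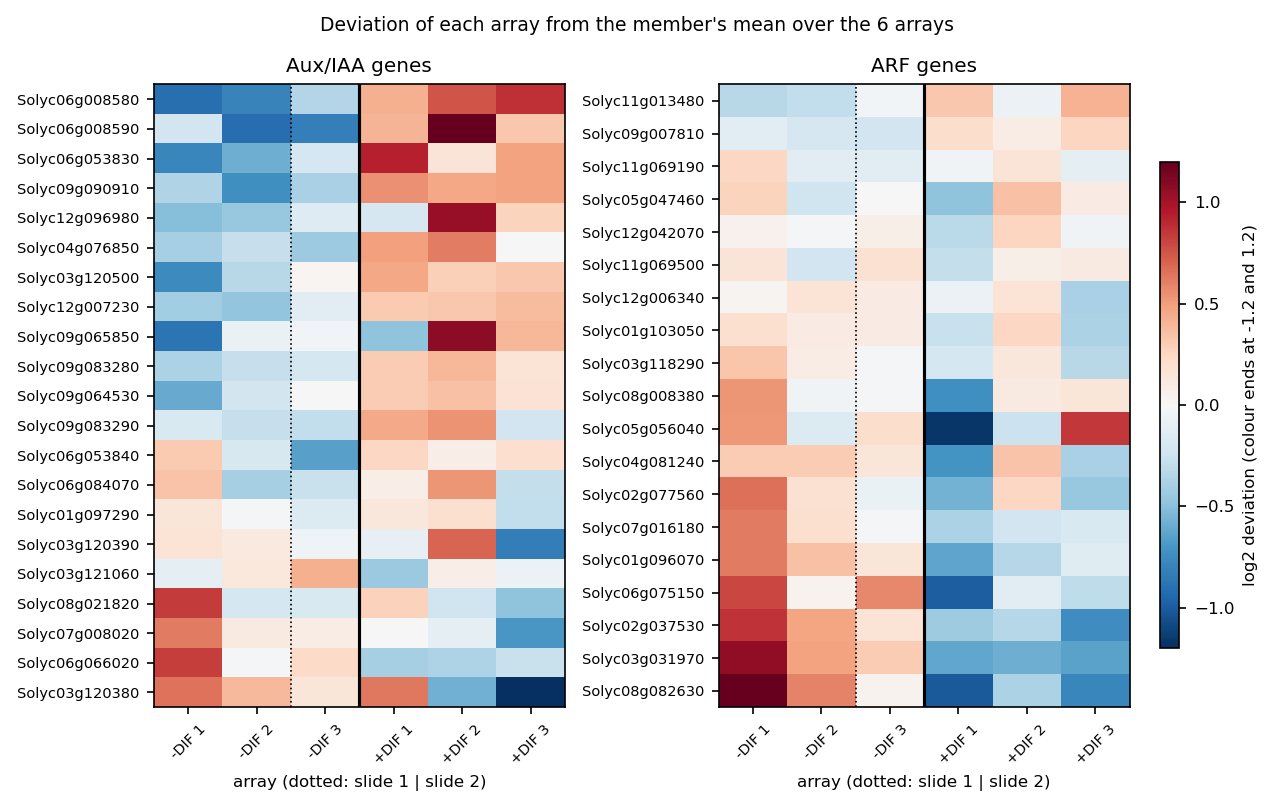
Deviation of the log2 signal on each of the 6 arrays from a gene's mean over the arrays, for the 21 Aux/IAA and 19 ARF genes above background, ordered by log2 fold change, with red above and blue below the mean and a dotted line between the slides. The upper Aux/IAA rows are blue under negative DIF and red under positive DIF, the lower ARF rows show the reverse, and the deepest ARF colours lie mostly in the columns of negative DIF replicate 1 and positive DIF replicate 1.

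Both families were then followed array by array, as the median deviation of the members from their own mean over the 6 arrays. For the Aux/IAA genes it was -0.23, -0.27 and -0.16 on negative DIF arrays 1, 2 and 3 and 0.30, 0.35 and 0.16 on positive DIF arrays 1, 2 and 3. No array departed from this division, and positive DIF replicate 3 had the smallest value of its group. For the ARF genes it was 0.34, 0.09 and 0.07 under negative DIF and -0.42, 0.09 and -0.18 under positive DIF. Positive DIF replicate 2 therefore lay at the level of negative DIF replicates 2 and 3, and the ARF family as a whole overlapped between treatments.

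The difference between the family medians on 1 array, ARF minus Aux/IAA, does not depend on how arrays are scaled to each other by a constant. It was 0.56, 0.36 and 0.23 under negative DIF and -0.73, -0.26 and -0.34 under positive DIF, without overlap. Negative DIF replicate 1 was the highest negative DIF array for 15 of the 20 ARF genes and 11 of the 21 Aux/IAA genes. The same share over all probes was not counted. Negative DIF replicate 1 also had the most probes well above background, 29341, and the highest 75th percentile of processed intensity, 2417 against 1475 to 1900 on the other arrays. The part of this array's brightness in the ARF values was not tested, and the ARF median over all 20 genes was 0.23 without it and 0.30 with it. The median over all probes moved the other way, at 0.13 without this array and 0.07 with it, so the ARF median came closer to it.

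**Figure D4:**
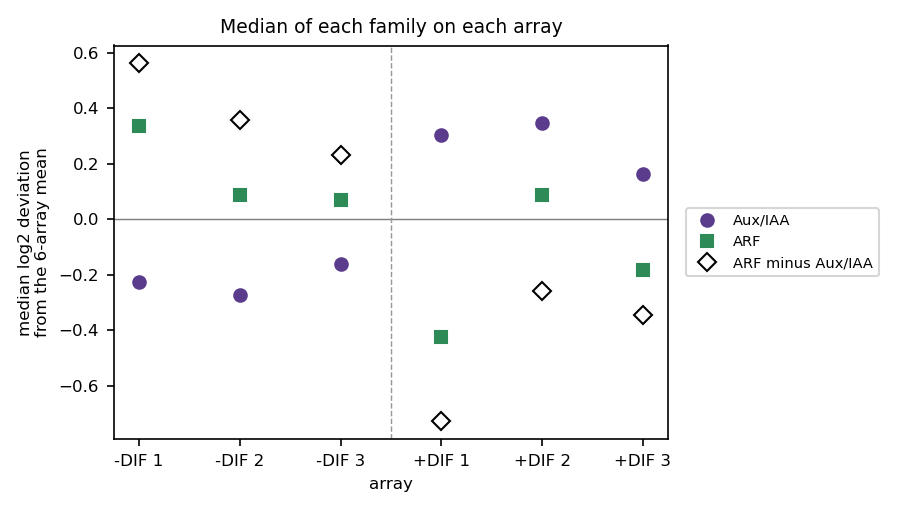
Median deviation, in log2 units, of the Aux/IAA genes (circles, 21 genes) and the ARF genes (squares, 19 genes) from their own 6-array means on each array, with ARF minus Aux/IAA as diamonds. Circles lie between -0.27 and -0.16 under negative DIF and between 0.16 and 0.35 under positive DIF, whereas the square of positive DIF replicate 2, at 0.09, lies among those of negative DIF.

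The differences of all members were then set beside those within the second slide, which share 4 of the 6 arrays, so a like direction is largely built in. It was the same for 39 of the 40 genes above background, against 86.3% of the bright probes. The exception, Solyc08g021820, was at 0.30 over all arrays and at -0.03 within the slide. The difference was smaller within the slide for 27 of the 40 genes and larger for 13, while it was smaller for 56.9% of the bright probes. With slide as a block, 3 of the 10 Aux/IAA genes and 1 of the 5 ARF genes past the unadjusted threshold over all arrays passed it again, and Solyc06g053840 passed in addition. In all, 4 Aux/IAA genes were lower at an unadjusted p of 0.05 (against 3.5% of all probes) and 0 were higher. Of the 20 ARF genes, 1 was higher, near the share of all probes (3.88%). In that fit 0% of all probes passed the adjusted threshold, and it rests on a single negative DIF array.

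**Figure D5:**
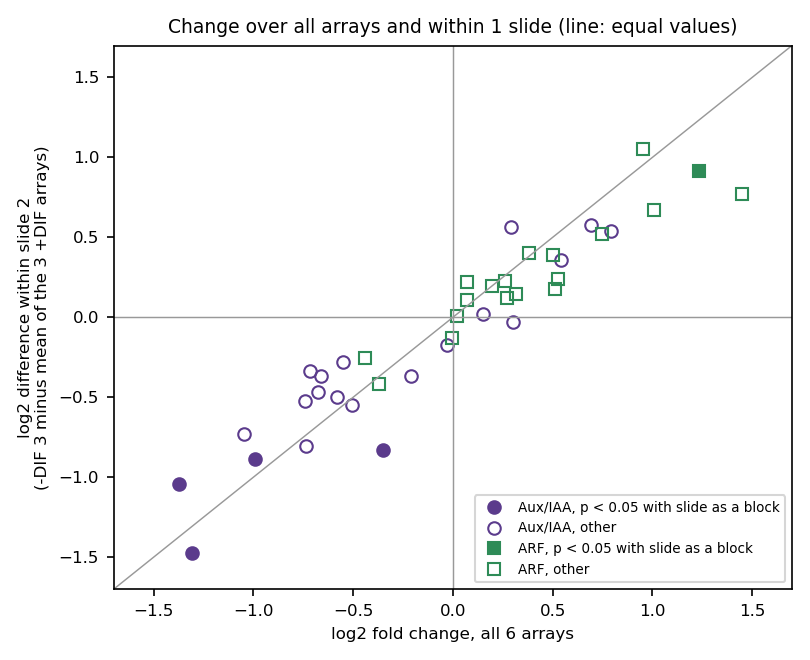
Log2 fold change over all 6 arrays (horizontal) against the log2 difference within the second slide, negative DIF replicate 3 minus the mean of 3 positive DIF arrays (vertical), for the 40 genes above background, with filled symbols where the unadjusted p with slide as a block was below 0.05. The axes share 4 of the 6 arrays, and 27 of the 40 genes have a smaller and 13 a larger difference within the slide.

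Whether a member passed the adjusted threshold depended on the processing. With quantile normalization between arrays, 2 Aux/IAA genes passed, Solyc06g008580 and Solyc09g090910, where 1.59% of all probes were lower and 1.3% higher. These 2 and the ARF gene Solyc03g031970 passed when dim probes were left out of the fit, where 3.85% of probes were lower and 3.54% higher. A variance trend with robust estimation gave 4 Aux/IAA and 2 ARF genes (2.1% of probes lower, 2.03% higher), and normexp background correction gave the same counts (2.58% lower, 2.21% higher). Slide as a random block gave 5 Aux/IAA and 3 ARF genes (3.49% lower, 3.4% higher), with a within-slide correlation of -0.216. A shared slide effect would make this correlation positive, so the fit cannot be read as a correction for slide. The deposited log2 table gave 6 Aux/IAA and 2 ARF genes (3.49% lower, 3.35% higher). In each of these fits the Aux/IAA genes that passed were lower and the ARF genes higher under negative DIF, and they always included Solyc06g008580 and Solyc09g090910.

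Among genes that the study names in the auxin pathway, chosen by the study on these samples, SlYUC (Solyc08g068160), which encodes an enzyme of auxin synthesis, had a log2 fold change of -1.17 (SE 0.31, adjusted p = 0.123 by limma). SlSAUR47 (Solyc04g053000), a member of the auxin-induced SAUR family, was at -1.98 and -2.04 on its 2 probes (SE 0.40 and 0.33), with adjusted p = 0.0783 and adjusted p = 0.0556 by limma. For SlTAA1 (Solyc05g031600), another enzyme of auxin synthesis, 0 of 6 arrays had the probe well above background. The study called SlYUC, SlTAA1 and SlSAUR47 downregulated on its arrays, whereas none of them passed the adjusted threshold here. The cut-off of those array calls is not stated in its text. By reverse transcriptase real-time PCR, the study reported the same genes to be lower in epicotyls under negative DIF. It also reported slightly lower IAA concentrations there. The log2 fold change of SlYUC lay within the range of the most changed Aux/IAA genes, and those of SlSAUR47 lay below every Aux/IAA value.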

How the data were processed

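Total RNA of tomato epicotyls was hybridised to 6 one-colour Agilent arrays, 3 for each treatment. The authors deposited 1 scanner file per array (Agilent Feature Extraction 10.10.1.1), in which the processed spot intensity is background-subtracted and not normalized between arrays, with flags for background, saturation and outliers. The authors also deposited a table of normalized log2 values, whose normalization is not given in the sources used here. Its heading gives each column the reverse of the treatment of the array whose values it matches. The columns were therefore assigned by their names in the study's supplementary tables, and the table served only as an alternative. The direction of its values rests on that reading. All other fold changes rest on the treatment in the title of each array, which that heading contradicts and the supplementary tables share.

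From the scanner files, control spots and outlier spots were left out, log2 was taken of the processed intensity, and each array was set relative to its own 75th percentile. A model with treatment alone was fitted to all 43803 probes with lmFit and eBayes of limma 3.58.1 (R 4.3.3), and p-values were adjusted after Benjamini and Hochberg over these probes. The fit was checked on simulated data that held no slide effect, so the check does not bear on the overlap of slide and treatment. Python 3.11.15 with pandas 2.3.3 and matplotlib 3.10.9 served for summaries and figures. Alternatives were quantile normalization, a filter on dim probes, normexp (offset 50), eBayes with trend and robust, slide as a fixed or random block, a replicate block, the deposited table, and each array left out in turn.

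The members and lists were chosen with earlier results of these data known. Values on each array are given for members past an unadjusted p of 0.05 and for the 3 brightest probes of each family. Classes of other auxin genes and markers of cell types, planned by product description, could not be filled, as no description was at hand for these identifiers, so the tissue was not checked against markers. No sequence was used.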

Additional observations from a re-analysis of the deposited data

How the results depend on the processing

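Of 280 values of the 20 members described array by array, recomputed under the alternatives, 267 kept their direction. Trend and robust, the dim filter and the replicate block cannot move a log2 fold change, so their values could not reverse. Fits with an array left out reuse the other arrays, and most of the 20 members were chosen by their unadjusted p. A kept direction is therefore partly built in, and its share over all probes is not given. The 13 values that reversed belonged to 3 genes. Solyc01g097290 was at 0.015 with normexp, 0.018 with a random slide block, 0.032 in the deposited table and from -0.18 to 0.063 with single arrays left out. Solyc11g069190 was at 0.034 with normexp, 0.033 with a random slide block, 0.0095 in the deposited table and from -0.13 to 0.071 with single arrays left out. Solyc06g066020 was at -0.024 with normexp, which moved the median of all probes to -0.20. The cause was not tested.

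The Aux/IAA median of -0.55 was -0.37 with slide as a fixed block and ranged from -0.63 to -0.40 with single arrays left out, lowest in size without positive DIF replicate 2. The ARF median of 0.30 ranged from 0.20 to 0.43 with single arrays left out, while the median over all probes ranged from -0.03 to 0.13. At an unadjusted p of 0.05, the count of lower Aux/IAA genes was 4 with slide as a fixed block and 7 to 9 with arrays left out, and that of higher ARF genes was 1 and 4 to 7. The 1 higher Aux/IAA gene became 0 with normexp, trend and robust, slide as a fixed block and the deposited table, 2 with a random slide block and 0 to 1 with arrays left out. Lower ARF genes, 0 in the main comparison, numbered 1 with quantile normalization, the dim filter, trend and robust and the deposited table, 2 with a random slide block and 0 to 1 with arrays left out. For the alternatives other than slide as a fixed block, the share of all probes at this unadjusted p is not given. Whether the counts in those fits follow the array as a whole therefore cannot be told. Adjusted calls of Aux/IAA and ARF genes were 2 and 0 with quantile normalization, 4 and 2 with normexp, 2 and 1 with the dim filter, 4 and 2 with trend and robust, 5 and 3 with a random slide block and 6 and 2 in the deposited table. They were 0 and 0 with slide as a fixed block and with any array left out.

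Replicate numbers are shared between treatments, but the deviations of same-numbered arrays correlated at 0.04, 0.06 and 0.22, so the numbers were not taken as pairs. With the replicate block, 6 Aux/IAA genes were lower and 0 higher and 4 ARF genes were higher at an unadjusted p of 0.05, 0 passed the adjusted threshold, and the medians were -0.55 and 0.30. This block is balanced over the treatments and cannot move a log2 fold change, so the medians were fixed in advance. Shares of all probes in that fit are not given.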

Other observations

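The spread between replicates differed little between the families. The median SD of log2 signal was 0.29 under negative DIF and 0.32 under positive DIF for the Aux/IAA genes, and 0.25 and 0.27 for the ARF genes, while over all probes it was 0.34 and 0.29. The widest members were Solyc05g056040, with an SD of 1.01 over the positive DIF arrays, and Solyc03g120380, with an SD of 0.95 over the same arrays. Solyc05g056040 was at -1.9985, -1.09 and 0.01 on positive DIF arrays 1, 2 and 3, a range that held all 3 negative DIF values.

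Positive DIF replicate 2 was the highest positive DIF array for 13 of the 20 ARF genes and 11 of the 21 Aux/IAA genes. The 13 include Solyc10g086130, whose probe never stood well above background. Of the 15 members past the unadjusted threshold, 10 kept it in every fit that left out 1 array, 6 Aux/IAA and 4 ARF genes. These fits reuse the arrays by which the 15 were chosen, so keeping it is partly built in. For neither count was the share over all probes taken, so neither can be read as particular to the members.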
